A study of Mus musculus with 15 samples.

Results

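The genes described here are 7 mesenchymal transcription factors, ZEB1, ZEB2, SNAI1, SNAI2, TWIST1, TWIST2 and PRRX1, and 2 proteins of mesenchymal cells, vimentin (VIM) and fibronectin (FN1). They were chosen by name, and all 9 were present among the 25382 genes of the count table and passed the filter on low counts, as did 15190 genes in all. The libraries came from primary tumours that MDA-MB-231 cells formed in Nod/Skid mice, as the strain is labelled. MDA-MB-231 is a human triple-negative breast cancer line, and the cells carried GFP and luciferase in every group. Before the cells were put into mice they were sheared at 10 dyn/cm2 to give weakly adherent cells (6 libraries) or at 50 dyn/cm2 to give strongly adherent cells (4 libraries), or they were not sheared and are called unsorted (5 libraries). Each tumour was dissociated and the mRNA of its cells was sequenced in bulk. The labels name 1 line and do not say whether it is a clone, how old the mice were, or whether any tumours were pooled. A library is called by its adhesion class and the number in its title, which is 4, 5, 6, 7-8, 9 or 10. What this number means, and whether libraries of a class are separate animals, the labels leave unsaid, so a p-value measures the spread among these libraries alone, which may be technical.

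An epithelial cell can lose its junctions and take on the shape and motility of a mesenchymal cell, a change called epithelial-mesenchymal transition (EMT). The 7 factors are among those best known for driving it. ZEB, SNAI and TWIST proteins act on E-boxes, short DNA elements in promoters such as that of CDH1, the gene of the epithelial junction protein E-cadherin, and PRRX1 is a homeobox factor. Vimentin, an intermediate filament protein, and fibronectin, a matrix glycoprotein that cells bind through integrins, are the products most often measured as signs of the mesenchymal state. MDA-MB-231 is known as a line with high vimentin and little or no E-cadherin.

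Total counts per library lay between 30372619 and 45434799, and 16760 to 17974 genes had at least 1 count. Levels are given in CPM, counts relative to the size of the library, scaled by TMM so that libraries share a common scale. CPM does not correct for gene length, so levels are compared between libraries and not between genes. A difference was called where the adjusted p of edgeR's quasi-likelihood test, taken over all genes tested, was under 0.05.

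The 3 libraries titled number 6 stood apart from the other 12, and so did strongly adherent library 5. CDH1 stood between 0.267 and 5.56 CPM in the libraries titled number 6 and between 53.1 and 549 CPM in the other 12. The level in those 12 goes against the low E-cadherin known for this line. EPCAM, an epithelial surface protein, lay between 25.0 and 50.7 CPM in number 6 and between 115 and 480 CPM in the others. CDKN2A, which is deleted in MDA-MB-231, had no count in any of the 15 libraries. In strongly adherent library 5 the summed level of 10 skeletal muscle markers was 2376 CPM. It was 121, 358 and 798 CPM in weakly adherent, strongly adherent and unsorted library 6, and at most 9.31 CPM in the remaining 11. The summed level of 10 fibroblast markers was 523 to 808 CPM in number 6 and 702 to 1408 CPM in the others. Among them COL1A1 averaged 520 CPM and COL3A1 68.8 CPM over all libraries. DCN was at 0 in some libraries and reached 0.187 CPM at most. The summed level of 9 endothelial markers was 197 to 205 CPM in number 6 and 36.7 to 165 CPM in the others. That of 10 macrophage and leukocyte markers was 123 to 204 CPM in number 6 and 72.9 to 128 CPM in the others, with TYROBP at 0 in every library. Single markers did not all follow these sums in number 6 against the other numbers. Log2 fold changes of the macrophage and leukocyte markers tested ran from -2.17 to 0.97, with a median of -0.77. Those of the endothelial markers ran from -1.31 to 3.11, with a median of 0.78, and those of the fibroblast markers from -1.96 to 1.07, with a median of -1.24. The part of such cells in the results that follow was not tested. In bulk libraries fewer cells of a type and less RNA per cell cannot be told apart, and that holds for every value given here.

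The title number, more than the adhesion class, went with the level of most of the 9 genes. Across all 15 libraries 93.2% of the variance of log2 CPM of TWIST2 lay between title numbers, 83.1% for TWIST1, 68.0% for PRRX1, 66.1% for SNAI1, 60.3% for ZEB2, 56.2% for VIM and 47.9% for ZEB1. Adhesion class held between 0.27% and 13.1% of the variance of these 7 genes. SNAI2 and FN1 were the exceptions. Title numbers held 8.29% and adhesion classes 29.5% of the variance of SNAI2, and for FN1 the shares were 19.3% and 22.6%. The median over all genes tested was 50.5% between title numbers and 7.36% between classes. Between title numbers the share of ZEB1 was thus below the median of all genes, and that of VIM not far above it. There are 6 numbers and 3 classes, so a gene without any pattern also has the larger share between numbers. A larger share between numbers is therefore no result particular to these genes.

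**Figure D1:**
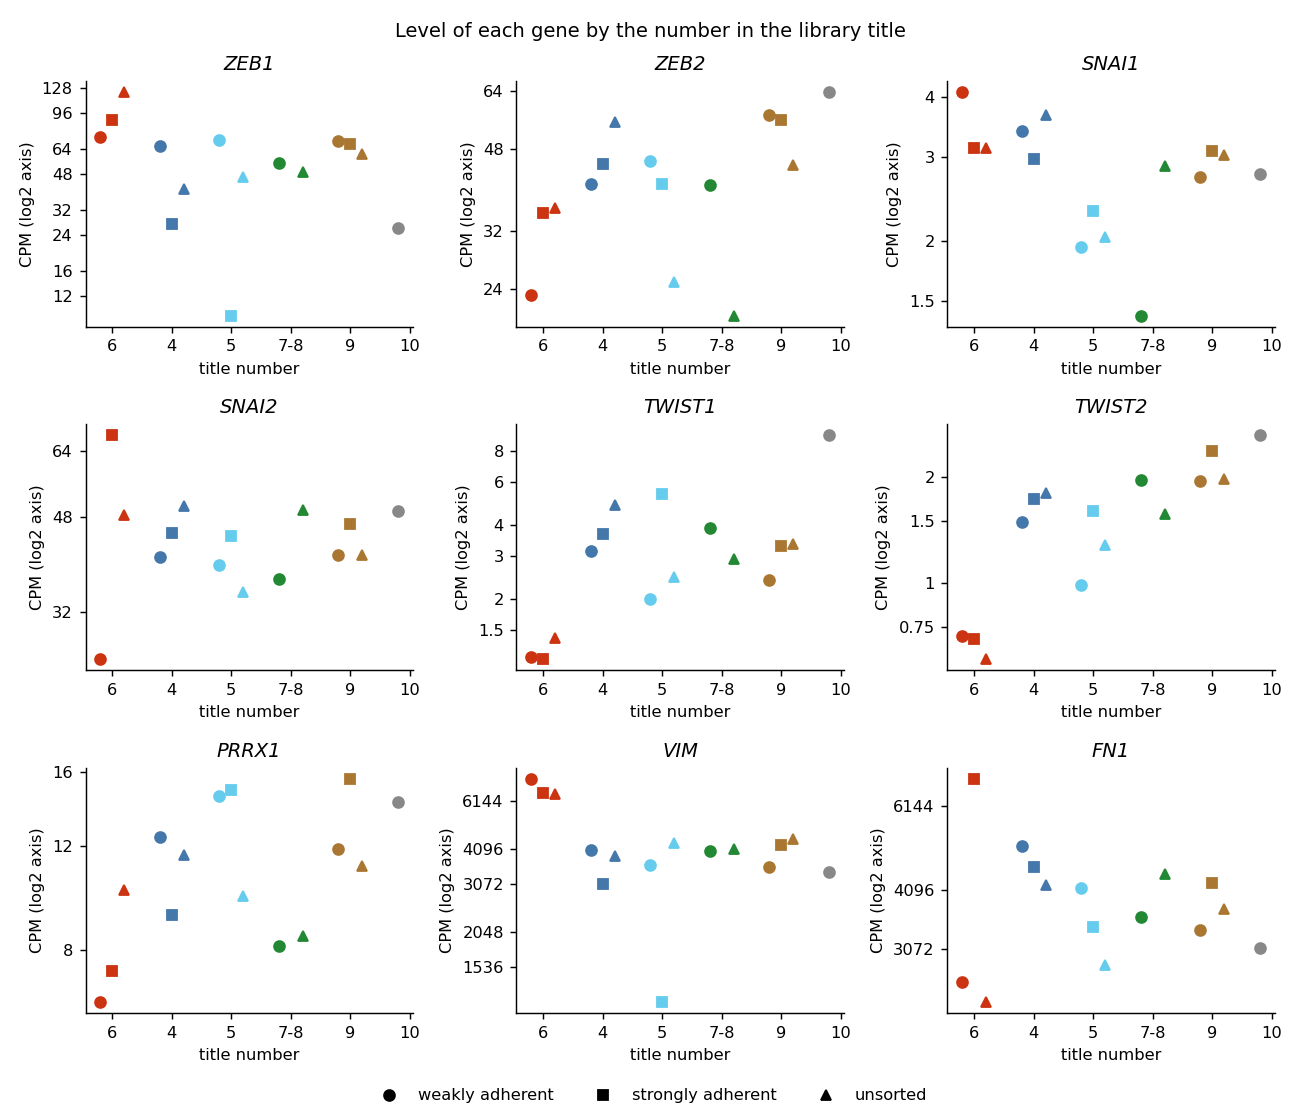
Level of each gene in CPM (log2 axis) by the number in the library title, with 1 point per library and the adhesion class as the marker. Title number 6 has the highest VIM and ZEB1 and the lowest TWIST1 and TWIST2, with no overlap with the other numbers, while its FN1 and SNAI2 are spread wide.

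In a test for any difference among the 6 title numbers, with the adhesion class kept in the model, 2 of the 9 genes passed, TWIST1 (adjusted p = 0.0160, edgeR) and TWIST2 (adjusted p = 0.0326), beside 7.9% of all genes tested. VIM had an adjusted p of 0.124 in this test and ZEB1 of 0.255. The call of TWIST2 was lost when any 1 of 10 libraries was left out (the 3 of number 4, the 3 of number 6, the 3 of number 9, and unsorted library 5), with an adjusted p of up to 0.113. TWIST1 missed the threshold once strongly adherent library 6 was taken out (adjusted p = 0.0555), or weakly adherent library 10 (0.0528). With strongly adherent library 5 left out, VIM (adjusted p = 0.0184) and ZEB1 (0.0470) passed as well, and DESeq2 on all libraries called VIM (0.00263) and ZEB2 (0.0442) beside TWIST1 and TWIST2. Without the 3 libraries titled number 6 none of the 9 genes passed. The lowest adjusted p was then 0.256, for TWIST1, and 0.0197% of all genes passed. The count over all genes was 1200, and it was 386 without strongly adherent library 6, 591 without unsorted library 6, 637 without strongly adherent library 4, 670 without unsorted library 9 and 749 without unsorted library 4.

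Title number 6 was then set against the mean of the other 5 numbers. Its separation was known from earlier results of these data, so the contrast describes how each gene takes part in it and is no independent evidence of it. In this contrast 27.9% of all genes were called, 11.6% higher and 16.4% lower in number 6. Of the 9 genes 4 were called, VIM and ZEB1 higher and TWIST1 and TWIST2 lower, and 5 were not. In these 4 genes the 3 libraries titled number 6 did not overlap the other 12, all above them in 2 genes and all below them in 2. The same holds for 5.63% of all genes above and 10.4% below. Without strongly adherent library 6 the number of genes called was 1981, against 4242 with it. The median log2 fold change of the 9 genes was -0.06, against 0.01 for all genes tested.

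VIM stood at 7399, 6560 and 6489 CPM in weakly adherent, strongly adherent and unsorted library 6. In the other 12 libraries the lowest value was 1143, the median 3950 and the highest 4478 CPM. All 3 libraries titled number 6 were thus above every other library. The mean was 6816 ± 506 CPM in number 6 (SD, n = 3) and 3656 ± 895 CPM in the others (SD, n = 12), a log2 fold change of 0.99 with a 95% interval of 0.47 to 1.52 and an adjusted p of 0.0108 in edgeR. Without strongly adherent library 6 the log2 fold change was 0.83 with an adjusted p of 0.0763, and no other single library ended the call. By title number the other means ran from 4091 ± 489 CPM in number 9 (SD, n = 3) through 4070 in number 7-8 and 3668 ± 529 in number 4 to 3389 in number 10 and 3023 ± 1671 in number 5 (SD, n = 3), and these overlap. Number 5 holds strongly adherent library 5, which at 1143 CPM was the lowest of all 15 for VIM and had the highest muscle markers of all 15. The antisense gene VIM-AS1 was at 12.2 to 14.9 CPM in number 6, against 2.54 to 10.7 CPM elsewhere. The sources used here do not give the strand setting of the counting, so reads of VIM and of VIM-AS1 cannot be told apart.

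ZEB1, a zinc finger repressor of CDH1 and other epithelial genes, was higher in number 6 as well. It stood at 73.1, 89.0 and 122 CPM in weakly adherent, strongly adherent and unsorted library 6. In the other 12 libraries the lowest value was 9.59, the median 51.8 and the highest 70.5 CPM, so the groups did not overlap, though the gap between 73.1 and 70.5 is narrow. The mean was 94.6 ± 24.8 CPM in number 6 (SD, n = 3) and 49.0 ± 19.9 CPM in the others (SD, n = 12), and the log2 fold change was 1.32 (95% interval 0.43 to 2.22, adjusted p = 0.0363 in edgeR). This call was the least stable of the 4. It was lost when any 1 of 9 libraries was left out, with an adjusted p of up to 0.170. These were strongly adherent libraries 4 and 6, weakly adherent libraries 7-8 and 10, and unsorted libraries 4, 5, 6, 7-8 and 9. It was also lost without a filter on low counts (0.0637) or without the adhesion class in the model (log2 fold change 1.10, adjusted p 0.0715). Without strongly adherent library 5, the lowest for ZEB1, the log2 fold change was 1.13 and the adjusted p 0.00403. The lowest and highest libraries differed 12.7-fold, the widest range among the 9 genes. ZEB1-AS1, the antisense gene, lay at 2.77 to 4.52 CPM in number 6 and 2.38 to 4.94 CPM in the others, and the same limit on strand applies.

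ZEB2, the paralog of ZEB1 and also a repressor of CDH1, gave no call. It stood at 23.3, 34.9 and 35.8 CPM in weakly adherent, strongly adherent and unsorted library 6, and in the other 12 between 21.1 and 63.5 CPM with a median of 44.4 CPM. The number 6 libraries lay within the range of the others. The log2 fold change was -0.48 (95% interval -0.97 to 0.02, adjusted p = 0.134 in edgeR), opposite in sign to that of ZEB1. The difference between the fold changes of ZEB1 and ZEB2 was not tested. The highest library for ZEB2 was weakly adherent library 10 and the lowest was unsorted library 7-8.

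TWIST1 and TWIST2, closely related basic helix-loop-helix factors, were lower in number 6. TWIST1 stood at 1.17, 1.15 and 1.40 CPM in weakly adherent, strongly adherent and unsorted library 6, and in the other 12 at 2.00 CPM at the lowest, 3.32 CPM at the median and 9.23 CPM at the highest. The log2 fold change was -1.79 (95% interval -2.45 to -1.14, adjusted p = 0.00147 in edgeR). TWIST2 stood at 0.71, 0.70 and 0.61 CPM in the libraries titled number 6, in the same order, and in the other 12 at 0.99 CPM at the lowest, 1.77 CPM at the median and 2.62 CPM at the highest. Its log2 fold change was -1.48 (95% interval -2.07 to -0.90, adjusted p = 0.00228). In both genes the 3 libraries titled number 6 were the lowest of the 15. Both levels are low, but the limit that a count of 0 allows (3 counts) is at most 0.100 CPM in any library, below every value. In the contrast of number 6 these 2 calls held under every alternative setting tried and without each library in turn.

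Weakly adherent library 10, the only library of its number, had the highest TWIST1, TWIST2 and ZEB2 of all 15, at 9.23, 2.62 and 63.5 CPM. It had the lowest ZEB1 after strongly adherent library 5, at 25.9 CPM, and a VIM level of 3389 CPM, inside the range of the other numbers. With 1 library, nothing can be tested about this number alone.

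PRRX1, the homeobox factor, stood at 6.54, 7.38 and 10.1 CPM in weakly adherent, strongly adherent and unsorted library 6. In the other 12 libraries it ranged from 8.15 to 15.6 CPM with a median of 11.7 CPM, so unsorted library 6 lay within that range and the other libraries titled number 6 lay below it. The log2 fold change was -0.55 (95% interval -0.98 to -0.12), and the adjusted p of 0.0533 just missed the threshold in edgeR. DESeq2 gave an adjusted p of 0.0282 and a fit without the adhesion class 0.0373, and it was also called without strongly adherent library 4 (0.0467), unsorted library 5 (0.0324) or unsorted library 6 (0.0189).

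SNAI1, the zinc finger factor Snail, stood at 4.09, 3.13 and 3.13 CPM in weakly adherent, strongly adherent and unsorted library 6 and between 1.40 and 3.67 CPM, with a median of 2.82 CPM, in the other 12. Weakly adherent library 6 was the highest of all 15, while the other libraries titled number 6 lay inside the range of the rest. The log2 fold change was 0.40 (95% interval -0.09 to 0.89, adjusted p = 0.205 in edgeR). Snail protein is controlled to a large degree by its stability, which mRNA levels do not show.

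SNAI2, the factor Slug, did not separate number 6, but its highest and lowest libraries were both titled number 6. It stood at 26.1, 68.3 and 48.5 CPM in weakly adherent, strongly adherent and unsorted library 6, while all the other 12 libraries lay between 34.8 and 50.5 CPM with a median of 42.6 CPM. The SD was 21.1 CPM in number 6 and 5.16 CPM in the others. The log2 fold change was -0.01 (95% interval -0.40 to 0.37, adjusted p = 0.966 in edgeR).

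FN1, like SNAI2, was highest in the strongly adherent library within number 6. It stood at 2610, 7031 and 2370 CPM in weakly adherent, strongly adherent and unsorted library 6, and between 2840 and 5071 CPM with a median of 3933 CPM in the other 12. Strongly adherent library 6 was the highest of all 15, and the other libraries titled number 6 were the lowest. The mean was 4004 ± 2625 CPM in number 6 (SD, n = 3) and 3885 ± 658 CPM in the others (SD, n = 12), and the log2 fold change was -0.06 (95% interval -0.61 to 0.48, adjusted p = 0.868 in edgeR). The 3 libraries with the most VIM thus held both the highest and the lowest FN1.

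**Figure D2:**
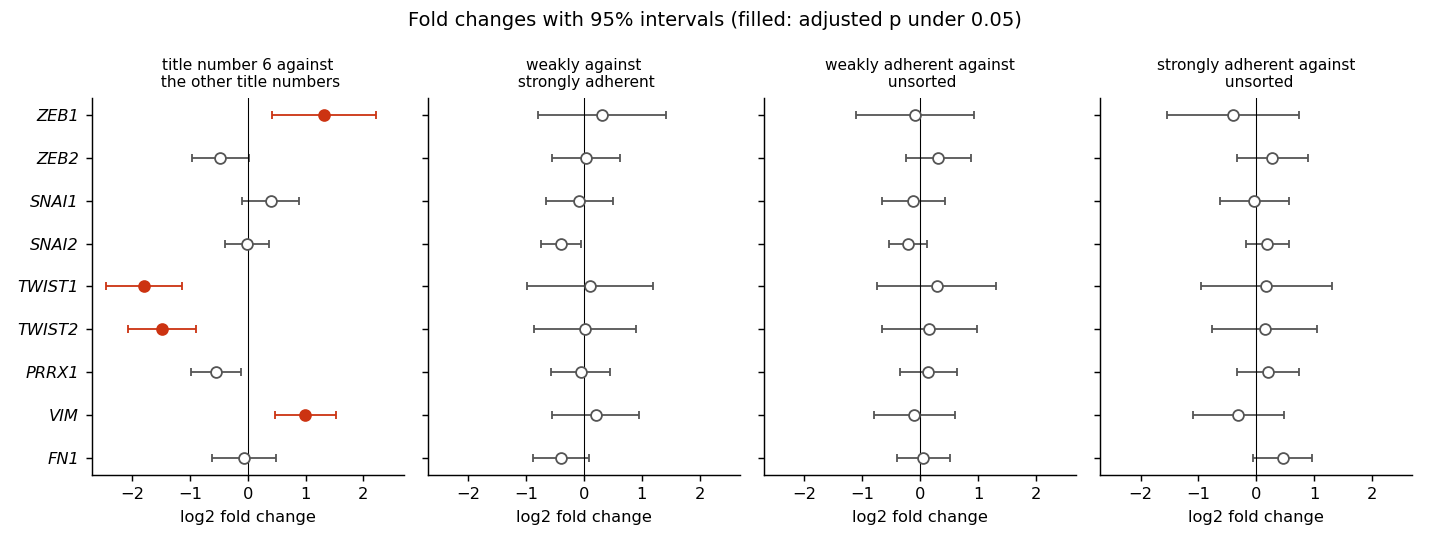
Log2 fold change of each gene with its 95% interval in the contrast of title number 6 with the other numbers and in the 3 contrasts of adhesion class, filled where the adjusted p in edgeR is under 0.05. VIM and ZEB1 are filled above 0 and TWIST1 and TWIST2 below 0 for title number 6, and no gene is filled for adhesion class.

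The adhesion classes ask whether the sort made before implantation left a difference in the tumours. None of the 9 genes was called in any of the 3 contrasts, where 0% of all 15190 genes were called. At an unadjusted p under 0.05, 366 genes passed for weakly against strongly adherent, 81 for weakly adherent against unsorted and 572 for strongly adherent against unsorted. All 3 counts are below the number that chance alone would give among 15190 genes, so they are no sign of a class difference. For strongly adherent against unsorted, where title numbers were taken to pair the libraries, the log2 fold changes were -0.40 for ZEB1, -0.31 for VIM and 0.45 for FN1 without the number as a block, and -0.65, -0.51 and 0.52 with it. The strongly adherent library was the lower in 3 of 4 numbers for ZEB1 and for VIM, by most in number 5, at -2.27 and -1.92 on the log2 scale. The unblocked values were -0.057 for ZEB1 and -0.0097 for VIM without strongly adherent library 5, and -0.88 and -0.72 without strongly adherent library 6. The intervals still allow changes of more than 1 on the log2 scale for ZEB1 and TWIST1 in all 3 contrasts, so these data do not show the classes to be alike.

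VIM averaged 4336 ± 1525 CPM in weakly adherent libraries (SD, n = 6), 3756 ± 2267 CPM in strongly adherent libraries (SD, n = 4) and 4656 ± 1050 CPM in unsorted libraries (SD, n = 5). The strongly adherent values were 3068, 1143, 6560 and 4254 CPM for title numbers 4, 5, 6 and 9, and the unsorted values were 3868, 4338, 6489, 4109 and 4478 CPM for numbers 4, 5, 6, 7-8 and 9. Weakly adherent libraries had a lowest value of 3389, a median of 3809 and a highest value of 7399 CPM. The classes overlapped throughout, and in each class the library titled number 6 was the highest. For weakly against strongly adherent the log2 fold change was 0.21 (95% interval -0.55 to 0.96, not called by edgeR), and without strongly adherent library 5 it was -0.09. ZEB1 gave 0.31 in that contrast (95% interval -0.79 to 1.42), and -0.03 without strongly adherent library 5.

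**Figure D3:**
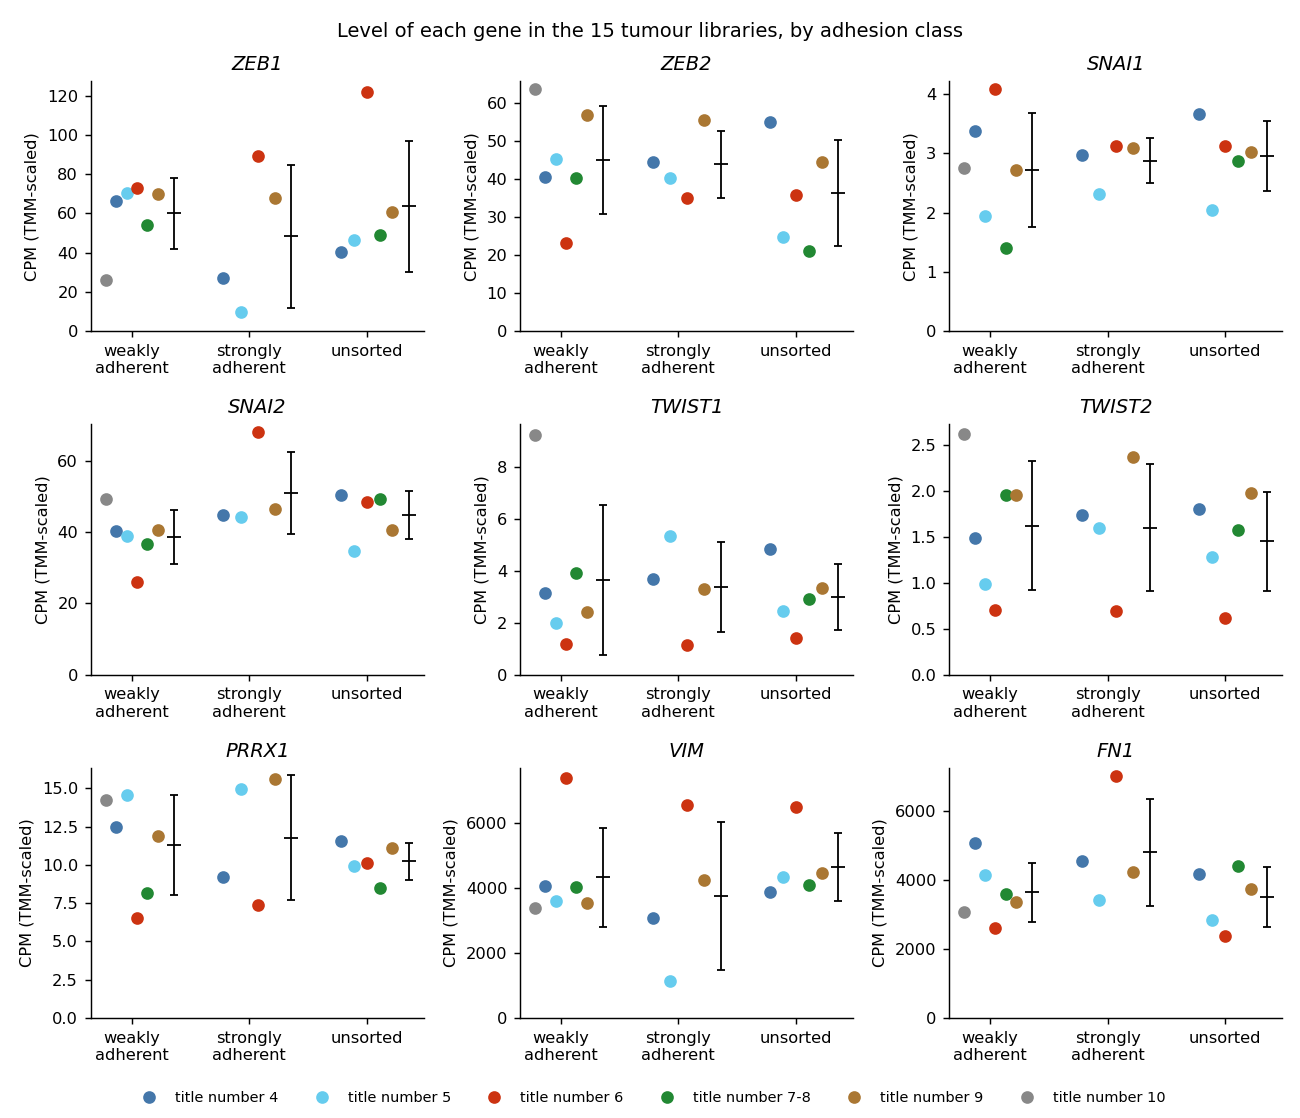
Level of each gene in CPM (linear axis from 0) in the 6 weakly adherent, 4 strongly adherent and 5 unsorted libraries, coloured by title number, with the mean and SD of each class beside the points. The classes overlap in all 9 genes, and SNAI2 and FN1 are highest in strongly adherent library 6, at 68.3 and 7031 CPM.

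SNAI2 had the smallest p of the 9 genes for weakly against strongly adherent origin. Its weakly adherent values ran from 26.1 to 49.3 CPM with a median of 39.7 CPM, and its strongly adherent values were 44.8, 44.4, 68.3 and 46.6 CPM for title numbers 4, 5, 6 and 9. Unsorted libraries stood at 50.5, 34.8, 48.5, 49.5 and 40.8 CPM for numbers 4, 5, 6, 7-8 and 9. Between weakly and strongly adherent libraries the log2 fold change was -0.40 (95% interval -0.75 to -0.04), with an unadjusted p of 0.0304 in edgeR that did not pass after adjustment over all genes. The weakly adherent library was the lower in 4 of 4 title numbers that hold both, with differences of -0.15, -0.18, -1.39 and -0.19 on the log2 scale in numbers 4, 5, 6 and 9. Number 6 supplied most of the difference, and without it the log2 fold change was -0.12.

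FN1 averaged 3642 ± 866 CPM in weakly adherent libraries (SD, n = 6), 4810 ± 1557 CPM in strongly adherent libraries (SD, n = 4) and 3509 ± 878 CPM in unsorted libraries (SD, n = 5). The strongly adherent values were 4565, 3417, 7031 and 4226 CPM for numbers 4, 5, 6 and 9, against unsorted values of 4188, 2840, 2370, 4420 and 3728 CPM for numbers 4, 5, 6, 7-8 and 9. The strongly adherent library was the higher in 4 of 4 title numbers that hold both, by 0.12, 0.27, 1.57 and 0.18 on the log2 scale in numbers 4, 5, 6 and 9. The log2 fold change was 0.45 (95% interval -0.05 to 0.96), which edgeR did not call. It was 0.21 without strongly adherent library 6, the lowest value when single libraries were left out, and 0.098 without all of number 6. For weakly against strongly adherent it was -0.40 (95% interval -0.89 to 0.09), and -0.07 without number 6.

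The remaining 5 factors were not called between classes, and their intervals were wide. For weakly against strongly adherent origin the log2 fold changes of ZEB2, SNAI1, TWIST1, TWIST2 and PRRX1 lay between -0.08 and 0.11. The sign of TWIST1 depended on the fit, with 0.11 as fitted, -0.48 with the title number as a block and -0.42 without weakly adherent library 10. Within title numbers its weakly adherent library was the lower in 3 of 4, with a mean difference of -0.51 on the log2 scale over the 4. For weakly adherent against unsorted origin they lay between -0.12 and 0.31, with ZEB2 at 0.31 (95% interval -0.25 to 0.87) and TWIST1 at 0.29 (95% interval -0.74 to 1.31), or -0.25 with the block. For strongly adherent against unsorted origin they lay between -0.04 and 0.28. These contrasts share libraries, so the values are given side by side and not as separate support.

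Whether each gene moved with VIM was measured over the 12 libraries not titled number 6, since the 3 of number 6 form a cluster of their own in VIM. Log2 CPM was used, with p-values from 100000 permutations adjusted over the 8 genes set against VIM. ZEB1 alone passed, with a Pearson r of 0.87 (permutation p = 0.00347, adjusted p = 0.0278). Its Spearman rho was 0.42 (permutation p = 0.178). The relation rests on the libraries with the least VIM. Without strongly adherent libraries 5 and 4, the farthest from the median VIM level, r was 0.32 (permutation p = 0.381, adjusted p = 0.725), and without library 5 alone it was 0.57 (adjusted p = 0.555). Without strongly adherent library 4 alone r was 0.88 with an adjusted p of 0.138, and without weakly adherent library 10 it was 0.90 with an adjusted p of 0.0853. Taken as deviations from the mean of each title number, which leaves 11 libraries, r was 0.90, with an exact permutation p of 0.104 over 432 arrangements (adjusted p = 0.753). This r includes strongly adherent library 5 and was not computed without it. That library differed from unsorted library 5 by -1.92 for VIM and -2.27 for ZEB1 on the log2 scale. In number 9 the same differences were -0.07 and 0.16.

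None of the other 7 genes passed. Their r with VIM was -0.08 for ZEB2, 0.12 for SNAI1, -0.17 for SNAI2, -0.38 for TWIST1, 0.07 for TWIST2, -0.36 for PRRX1 and 0.18 for FN1, with adjusted permutation p-values from 0.758 to 0.787. Several of these values moved with the setting and none then passed: ZEB2 gave -0.53 without the 2 libraries farthest from the median VIM level, and within title numbers TWIST1 gave -0.73, TWIST2 -0.60 and SNAI2 -0.46. With 12 libraries a relation of moderate size can be missed, so these values do not show that the genes are unrelated to VIM. Across 13137 genes the median r with VIM was 0.01, and 90% of genes lay between -0.74 and 0.77. The r of ZEB1 was above that of 98.8% of genes, and above that of 91.5% once strongly adherent library 5 was left out. These percentages describe the same libraries and carry no test. The other 7 genes lay between the 26.5 and 60.8 percentiles.

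**Figure D4:**
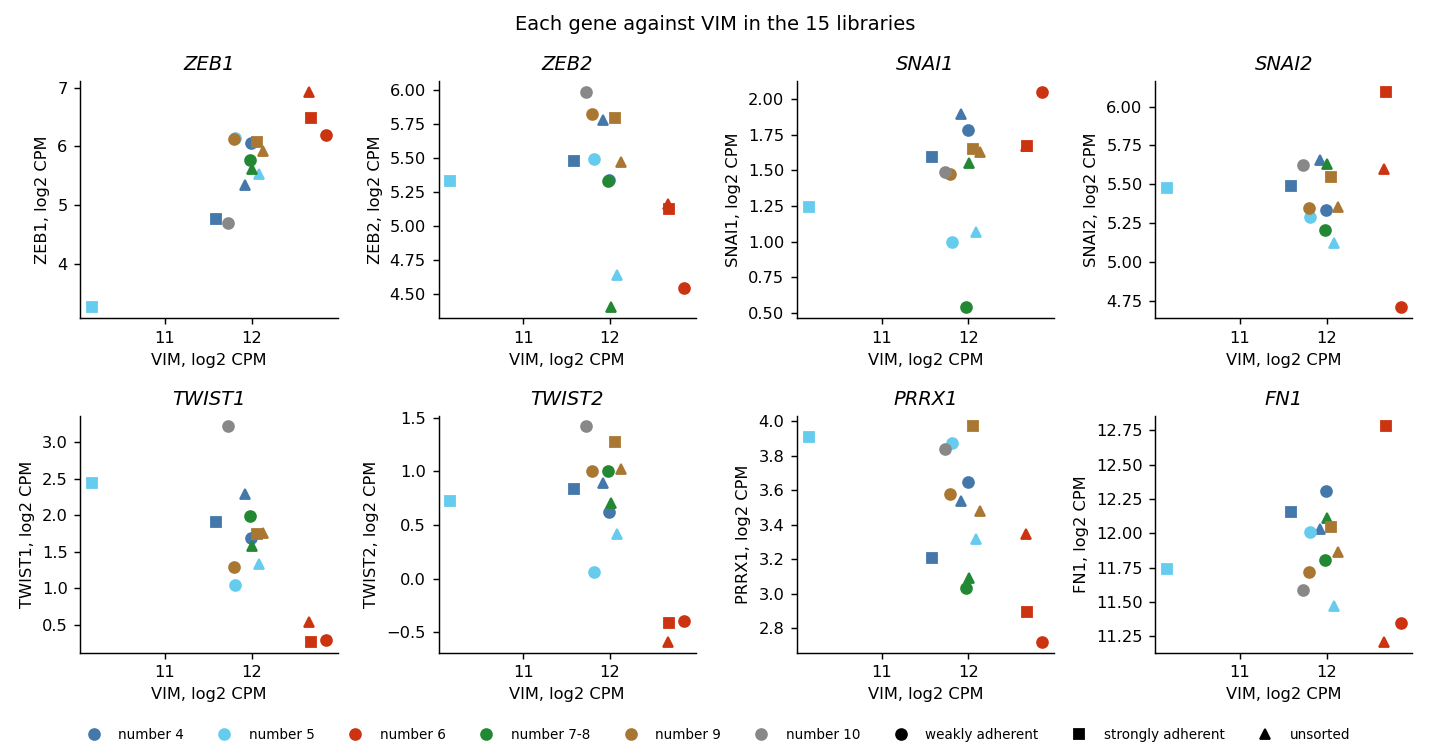
Log2 CPM of each gene against log2 CPM of VIM in the 15 libraries, with title number as colour and adhesion class as marker. The 3 libraries of number 6 lie together at the right on the VIM axis, but are spread wide in height for SNAI2 and FN1. Strongly adherent library 5 lies alone at the left, with ZEB1 at its lowest there (9.59 CPM).

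Relations among the 8 genes other than VIM were also measured over the same 12 libraries, in 28 pairs. None passed after adjustment over the pairs. Those of largest size were ZEB1 with TWIST1 (r = -0.66, rho = -0.78), SNAI1 with SNAI2 (r = 0.66) and TWIST1 with TWIST2 (r = 0.65), each with an adjusted permutation p of 0.275 for r. The adjusted p of rho for ZEB1 with TWIST1 was 0.130. In the contrast of number 6 the log2 fold changes were 1.32 for ZEB1, -1.79 for TWIST1 and -1.48 for TWIST2. They were 0.40 for SNAI1 and -0.01 for SNAI2. That contrast is no independent evidence of a relation in any pair.

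Genes at a mean of at least 1 CPM were ranked by their r with VIM over the 12 libraries. Symbols of antisense, noncoding or unnamed genes were left out. Symbols ending in P, or in P and digits, were left out too, some of them protein-coding. Of the genes kept, the 5 highest were HCFC1R1 (0.97), TUBB6 (0.97), PXDC1 (0.96), WDR83 (0.96) and CXXC1 (0.95). TUBB6 is a beta-tubulin, and whether some of its reads also align to other tubulin genes was not tested. Without strongly adherent library 5 the r of these 5 genes lay between 0.64 and 0.80. In the contrast of number 6, TUBB6 (log2 fold change 0.81, adjusted p = 0.00936), WDR83 (0.66, 0.0248) and PXDC1 (0.48, 0.0335) were called higher, and HCFC1R1 and CXXC1 were not called. Of the genes kept, the 5 with the lowest r were CRYAB (-0.97), MYBPC1 (-0.96) and ACTN2, MYH7 and NEB (-0.95 each). MYBPC1, ACTN2, MYH7 and NEB encode proteins of the sarcomere, the contractile unit of striated muscle, and CRYAB a small heat shock protein abundant there. Without strongly adherent library 5 their r lay between -0.70 and 0.00.

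Genes that work with the 9 were taken from lists, and their results are given for title number 6 against the other numbers. The counts are to be read beside the 11.6% of all genes tested that were higher and the 16.4% that were lower in this contrast. Of 35 epithelial genes, 34 were lower and 0 higher, with a median log2 fold change of -2.75. ESRP2, an epithelial splicing regulator, was at 1.40 to 4.52 CPM in number 6 and 11.8 to 54.1 CPM in the others (log2 fold change -2.97, adjusted p = 0.000332 in edgeR). KRT7, a keratin of simple epithelia, was at 749 to 1004 CPM in number 6 and 1328 to 2812 CPM in the others (-1.23, 0.000328). GRHL2, an epithelial factor known to oppose ZEB1, was at 0.080 to 0.430 CPM in number 6 and 10.7 to 86.6 CPM in the others. OVOL2, a repressor of ZEB1, was at 0 to 0.031 CPM in number 6 and 1.11 to 6.43 CPM in the others, and TJP3, a tight junction protein, at 0.080 to 0.307 CPM in number 6 and 1.42 to 11.6 CPM in the others.

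Of 32 further mesenchymal genes, 4 were higher and 13 lower in number 6, with a median log2 fold change of -0.25, beside 11.6% higher and 16.4% lower of all genes tested. The share that was higher is near that of all genes and says nothing particular of the list. CTGF, CYR61 and FSTL1 were among those higher. CYR61, a matrix-associated signalling protein, stood at 805 ± 97.5 CPM in number 6 (SD, n = 3) and 402 ± 124 CPM in the others (SD, n = 12), a log2 fold change of 1.10 (adjusted p = 0.000513 in edgeR). SPARC, a collagen-binding matrix protein, was lower, at 46.5 ± 8.43 CPM in number 6 and 162 ± 31.5 CPM in the others (-1.85, 6.05e-05). TAGLN, an actin-binding protein of smooth muscle and myofibroblasts (-2.06, 0.000678), and the collagen gene COL5A1 (-0.89, 0.000332) were lower as well. The higher VIM and ZEB1 thus stood beside lower levels of several matrix genes that are counted as mesenchymal. COL1A1 and COL3A1, which are also on the fibroblast list, were among the matrix genes that fell, with log2 fold changes of -1.66 (adjusted p = 0.00373) and -1.96 (0.000577).

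Of 16 other transcription factors linked to EMT, 14 were tested, 2 were higher and 4 lower, with a median of -0.26, beside the same 11.6% and 16.4% of all genes. FOXC1, a forkhead factor, was higher, at 51.7 to 72.9 CPM in number 6 and 30.0 to 48.0 CPM in the others (log2 fold change 0.81, adjusted p = 0.000763 in edgeR). ETS1 (0.72, 0.00552) was higher as well. SOX4 (-1.19, 0.000562), FOXQ1 (-0.95, 0.00106), TCF3, the E protein with which TWIST factors pair (-0.51, 0.00522), and HMGA2 (-0.34, 0.0489) were lower. Of 13 corepressors and stability factors of SNAI and ZEB proteins, BMI1 was higher, FBXL14 lower and 11 were not called, where 27.9% of all genes were called.

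Of 12 fibronectin receptors and matrix partners, 11 were tested, 3 were higher and 5 lower, with a median of -0.07, beside 11.6% higher and 16.4% lower of all genes. ITGA5, the alpha chain of the main fibronectin receptor, was higher (log2 fold change 1.30, adjusted p = 0.0202 in edgeR), at 358 to 765 CPM in number 6 and 107 to 323 CPM in the others. TNS1 (2.77, 0.00802) and TGM2 (0.97, 0.0497) were higher as well. ITGB6 (-3.47, 0.00229), FBLN1 (-1.57, 0.00140), SDC4 (-0.60, 0.0250), ITGAV (-0.40, 0.0439) and ITGA4 (-2.76, 0.0265) were lower. Of 13 other intermediate filament genes and linkers, 8 were tested and 0 were called, where 27.9% of all genes were called. The lists were chosen with earlier results of these data known, and none of their genes was called between adhesion classes. Of the 35 epithelial genes, 0 lay above 0 for weakly against strongly adherent (median log2 fold change -0.58). For strongly adherent against unsorted 34 did (median 0.57), and for weakly adherent against unsorted 12 (median -0.06). Over all genes tested the medians were -0.02, 0.02 and -0.0003 in the same order, and the share above 0 was not counted. CDH1, EPCAM, ESRP1 and GRHL2 are among 8 genes chosen as absent or low in this line. In strongly adherent libraries 4, 5, 6 and 9 the summed level of the 8 was 951, 1405, 106 and 398 CPM. It was 102 to 683 CPM in unsorted and 145 to 614 CPM in weakly adherent libraries. Whether these epithelial genes shift as a set was not tested.

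**Figure D5:**
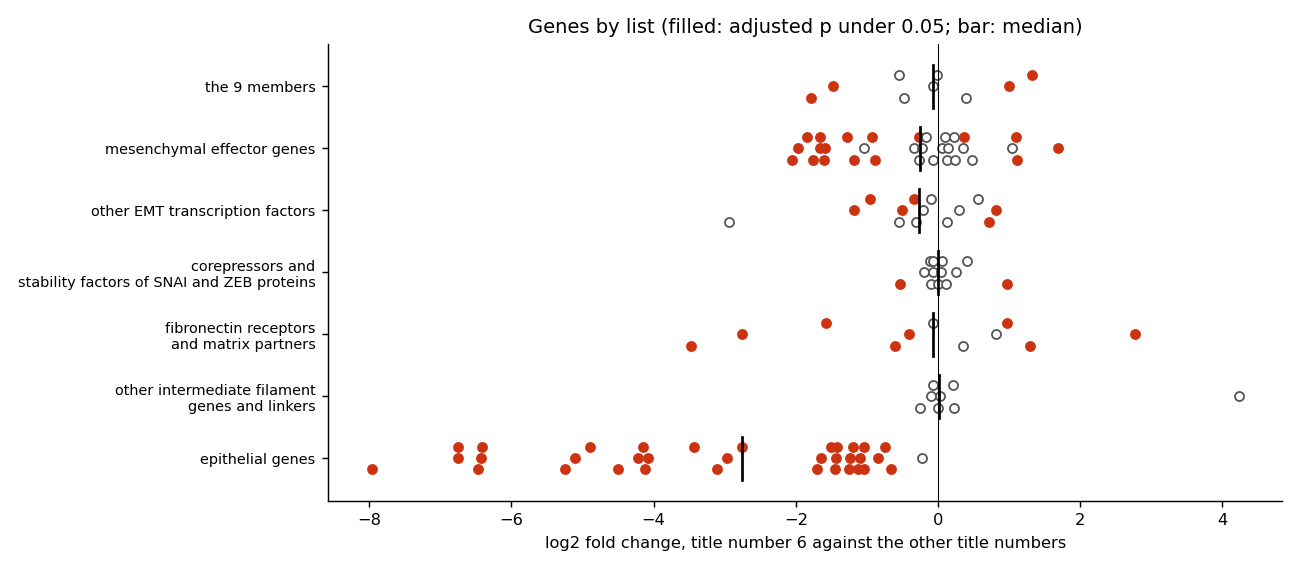
Log2 fold change of each tested gene of 6 lists and of the 9 genes in the contrast of title number 6 with the other numbers, filled where the adjusted p in edgeR is under 0.05, with the list median as a bar. Epithelial genes lie below 0 (34 of 35 called), while mesenchymal genes are called on both sides (4 higher, 13 lower).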

How the data were processed

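Per the labels' protocols, 15 bulk mRNA libraries of dissociated tumours were prepared with a TruSeq stranded kit and read from a single end over 50 bp. The submitters' processing notes name STAR, HTSeq, DESeq2, cutadapt and FastQC, and build hg19. The sources used here give neither versions nor the strand setting. The labels name mouse as the organism, while symbols and build are human, so host reads that align to human genes may be included. The authors deposited whole-number counts per gene, on which every test rests, and log2 values, which equal log2 of the size-factor-scaled count plus 1 to within 5.15e-14 and served only as an alternative.

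Counts were fitted in R 4.3.3 with edgeR 4.0.16 (TMM, filterByExpr, robust quasi-likelihood). All 15 libraries entered 1 fit by adhesion class, and a second fit by title number with class as a term. The filter kept 15190 genes with 99.98% of counts, and the biological coefficient of variation was 33.6%. Tests were two-sided, with p-values adjusted over all genes by Benjamini-Hochberg. Intervals, derived from the F statistic, are approximate. The limit at a count of 0 covers counting error only. Correlations used log2 CPM with a prior count of 2. Both fits and the correlations were tested on simulated data. These held no title number effect in the fit by class and no extreme library in the correlations, so they cover neither.

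Members, lists and title number 6 were chosen with earlier results of these data known. All members are named. From each list, up to 4 genes past the test among title numbers at a mean of at least 1 CPM are named, by smallest p. Other list genes were named after their values were seen. None of 31 pairs of same-class libraries agreed within sampling noise. Same-numbered libraries deviated together from their class means (all correlations over 0.1) for strongly adherent against unsorted only, where the numbers were taken to pair the libraries. The class means included number 6, and differently numbered libraries were not correlated for reference. These correlations therefore cannot show that the numbers pair the libraries. Alternatives were other scalings and filters, DESeq2 1.42.0, limma 3.58.1, other terms, and libraries left out. No human sequences were used here.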

Additional observations from a re-analysis of the deposited data

Results flagged for a closer look

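In 27 sets of 4 to 6 libraries, a gene within an adhesion class, Dixon's test at the 95% level flagged 5 single libraries far from their class. At that level chance alone flags about 1 of 20 independent sets, so 5 of 27 is more than that rate. The sets share the same libraries and are not independent. VIM was flagged in weakly adherent library 6, at 7399 CPM with the nearest other library at 4067 CPM, and in unsorted library 6, at 6489 CPM with the nearest at 4478 CPM. ZEB1 was flagged in unsorted library 6, at 121.8 CPM with the nearest at 60.6 CPM. SNAI2 was flagged in strongly adherent library 6, at 68.3 CPM with the nearest at 46.6 CPM. TWIST1 was flagged in weakly adherent library 10, at 9.23 CPM with the nearest at 3.91 CPM. Of these 5 libraries and genes, 4 carry title number 6. The cause was not tested.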

How the results depend on the processing

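In the contrast of title number 6 the calls of TWIST1 and TWIST2 held under every alternative, that of VIM under all but leaving out strongly adherent library 6, and that of ZEB1 least often, as given with its values. Among title numbers DESeq2 called 3344 genes, including VIM (adjusted p = 0.00263) and ZEB2 (0.0442). The fits without number 6 called 3 genes, and 54 when strongly adherent library 5 was left out too. Leaving out single libraries gave 386 to 1621 genes among title numbers and 1981 to 4231 for number 6, the lowest both times without strongly adherent library 6. No member was called between classes under any alternative. The title number as a block left the counts at 0, and DESeq2 with that block, added after seeing the data like the fits without library 5 and the correlations without single libraries, called 30 genes for weakly against strongly adherent, 0 for weakly adherent against unsorted and 23 for strongly adherent against unsorted. Same-numbered libraries correlated at 0.016 to 0.767 for weakly against strongly adherent, 0.033 to 0.683 for weakly adherent against unsorted and 0.280 to 0.750 for strongly adherent against unsorted, and the block changed no other call.

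The signs that reversed all belong to values that pass no test, and their causes were not tested. For weakly against strongly adherent the log2 fold change of ZEB2 was -0.0033 with limma voom, -0.014 with the block, -0.017 with DESeq2 and the block, and -0.0090 without number 6 and library 5. TWIST1 gave -0.028 with voom, -0.48 with the block and -0.49 with DESeq2 and the block. TWIST2 gave -0.065 without number 6, -0.17 without library 5 too, -0.25 with the block and -0.26 with DESeq2 and the block. For weakly adherent against unsorted ZEB1 gave 0.2262 without number 6 and without library 5 too, 0.245 with the block and 0.241 with DESeq2 and the block. TWIST1 gave -0.2545 with the block and -0.2586 with DESeq2 and the block, and TWIST2 -0.030 and -0.038. SNAI1 gave 0.055 for strongly adherent against unsorted without number 6 and library 5. For number 6 without the class term SNAI2 gave 0.12 and FN1 0.094.

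Leaving out single libraries moved weakly against strongly adherent values across 0, from -0.029 to 0.79 for ZEB1, -0.089 to 0.17 for ZEB2, -0.23 to 0.053 for SNAI1, -0.42 to 0.43 for TWIST1, -0.23 to 0.27 for TWIST2, -0.23 to 0.11 for PRRX1 and -0.093 to 0.62 for VIM. For weakly adherent against unsorted the ranges were -0.21 to 0.28 for ZEB1, -0.27 to 0.016 for SNAI1, -0.24 to 0.53 for TWIST1, -0.038 to 0.32 for TWIST2, -0.32 to 0.047 for VIM and -0.065 to 0.15 for FN1. For strongly adherent against unsorted they were -0.14 to 0.054 for SNAI1, -0.14 to 0.46 for TWIST1 and -0.11 to 0.39 for TWIST2. For number 6 they were -0.27 to 0.30 for SNAI2 and -0.57 to 0.21 for FN1.

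The correlation of ZEB1 with VIM ranged from 0.57 to 0.90 without single libraries, and was 0.32 without the pair farthest from the median and 0.90 within title numbers, neither past the threshold. Without single libraries r ranged from -0.43 to 0.015 for ZEB2, -0.048 to 0.29 for SNAI1, -0.053 to 0.15 for TWIST2 and -0.073 to 0.34 for FN1. ZEB2 gave -0.53 and TWIST2 -0.073 without the farthest pair, and within title numbers TWIST1 gave -0.73, SNAI2 -0.46, SNAI1 -0.12, TWIST2 -0.60 and FN1 -0.013, none past the threshold. Every level is above the limit at a count of 0, which shows detection and not precision. TWIST1 and TWIST2 rest on few counts in number 6, with 38 and 23 in weakly adherent library 6. The few libraries limit every test.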

Other observations

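Markers of other cell types were called in both directions for title number 6 against the other numbers. Of all genes tested, 11.6% were higher and 16.4% lower in this contrast, and the counts below are to be read beside these shares. Of 9 endothelial markers 7 were tested and 4 were higher in number 6 by edgeR. CDH5, a junction protein of endothelial cells, stood at 6.31 to 10.6 CPM in number 6 and 0.191 to 5.23 CPM in the others (log2 fold change 3.11, adjusted p = 0.000381). EMCN and VWF did not pass the filter on low counts. Of 10 macrophage and leukocyte markers 5 were tested, CD68 was higher (0.97, adjusted p = 0.00346) and 3 were lower, among them PTPRC, the pan-leukocyte surface protein (-2.17, 0.00301). Of 8 fibroblast markers tested 1 was higher and 4 were lower. Of 5 keratinocyte markers 4 were tested and 3 were lower. KRT5, a basal keratin, stood at 0 to 0.184 CPM in number 6 and 1.24 to 12.2 CPM in the others. Of 10 skeletal muscle markers 5 were higher and 1, MB, lower. ACTA1, skeletal muscle actin, stood at 53.4 to 350 CPM in number 6 and 0.261 to 864 CPM in the others, the highest in strongly adherent library 5. These genes were named after their values were seen, and their part in the levels of the 9 genes was not tested.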
